A study of Mus musculus with 16 samples.

Results

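Supporting cells of the cochlea surround the sensory hair cells, and at birth many of them are held in the supporting cell fate by Notch signalling. To ask what a block of this signalling does to them some days after birth, RNA of Lfng-EGFP+ cells from postnatal day 5 (P5) explants kept for 24 hours in DAPT was compared with RNA of the same kind of cells kept in vehicle. DAPT is an inhibitor of gamma-secretase, the protease complex that releases the active fragment of Notch receptors. The comparison rested on 4 of the 16 libraries of the series, chosen by their labels alone, which were 2 libraries named P5 Cochlea DAPT GFP+ and 2 named P5 Cochlea DMSO GFP+. For reference, the 4 GFP+ libraries of P0 explants and the 4 GFP- libraries of P5 explants from the same kinds of culture were used.

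All mice carried the LFng-GFP BAC transgene (B6;FVB-Tg(Lfng-EGFP)HM340Gsat/Mmucd), in which regulatory sequence of Lfng drives green fluorescent protein. Every explant, control or treated, was kept in medium with B27, EGF and FGF2, with 10 µM DAPT or with 0.04% v/v DMSO. The cells were pooled from many cochleas and sorted for bright GFP. By the study's account such cells are largely supporting cells of the sensory epithelium other than inner pillar cells, and the lateral wall was partly removed at P5. Since bulk RNA of sorted cells was measured, fewer cells of a type cannot be told apart from less RNA per cell. Nothing in the labels states whether the replicates came from separate cultures, so p-values measure the spread between these libraries.

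When a Notch receptor binds a ligand on a neighbouring cell, gamma-secretase frees its intracellular part, which joins the DNA-binding protein RBPJ and switches on repressors of the Hes and Hey families. In the cochlea these repressors keep Atoh1, the transcription factor that starts hair cell development, low in supporting cells, while hair cells carry the ligands Dll1 and Jag2. Blocking Notch in newborn cochleas is known to turn some supporting cells into hair cell-like cells.

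The 4 P5 GFP+ libraries held from 13755356 to 20249037 counts assigned to genes, and reads outside annotated genes took from 53.3 to 61.0% of their records. Mitochondrial ribosomal RNA made up 21.7 to 29.8% of their gene counts, against 0.044 to 0.109% in the 8 GFP- libraries of the series. The labelled cell type was checked against 10 supporting cell markers, whose summed level was 9517 and 10640 CPM (counts scaled to library size) in the DMSO libraries and 13980 and 9257 CPM in the DAPT libraries. None of these markers was at 0 in any group, and they summed to 3044 to 6299 CPM in the P5 GFP- libraries. Markers of mesenchyme, 12 genes, summed to 2932 CPM in DMSO replicate 1 and 3045 CPM in DAPT replicate 2, against 706.5 CPM in DMSO replicate 2 and 929.5 CPM in DAPT replicate 1. The higher values thus lay in 1 library of each treatment and remained well below the GFP- libraries, at 16940 to 19540 CPM. Of the 12 mesenchyme markers, none separated the 2 treatments without overlap, and their part in the results below was not tested beyond leaving out each library in turn. Markers of endothelium (24.7 to 121 CPM in sum) and of macrophages (17.3 to 36.7 CPM) were likewise highest in DMSO replicate 1 and DAPT replicate 2.

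**Figure D1:**
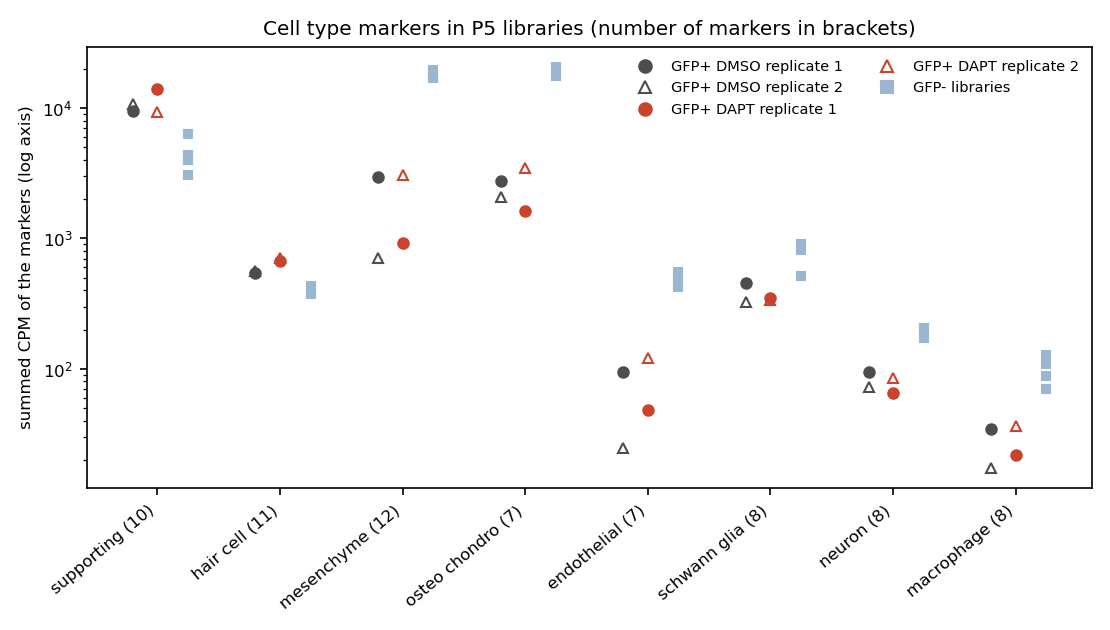
Summed CPM (log axis) of cell type markers in the P5 libraries, with filled circles and open triangles for replicates 1 and 2 of the DMSO (grey) and DAPT (red) GFP+ groups and blue squares for the 4 GFP- libraries. Mesenchyme markers were high in 1 library of each treatment, at 2932 and 3045 CPM, and low in the other, at 706.5 and 929.5 CPM.

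Of 18754 genes tested at P5, 0 (0.0%) passed an adjusted p under 0.01 with a fold change over 2 in the quasi-likelihood test of edgeR, the limits used below. An unadjusted p under 0.05 was reached by 953 genes. The Wald test of DESeq2 passed 58 genes at the same limits, of which 43 were lower with DAPT (0.229% of the genes tested) and 15 higher (0.08%). The count of 0 in edgeR depended on the filter on low counts. With all 31572 genes that had a count in the fit, edgeR passed 108 genes, of which 67 were lower (0.212%) and 41 higher (0.13%), and these included 57 of the 58 of DESeq2. Of the 108, 107 were also among the 18754 genes of the filtered fit, where the same counts gave larger adjusted p. For Ly6g6c, whose treated libraries differed 2.81-fold, the adjusted p was 8.4e-61 in edgeR without the filter and 0.474 with it. In DESeq2 it was 3.8e-04. With 2 libraries per group a value such as the first cannot be taken at face value. Calls without the filter are given below as a dependence on the processing and not as evidence. In view of the few libraries, 2 further descriptions are used below for gene lists. The first is an unadjusted p under 0.05, reached by 497 genes that were lower (2.65%) and 456 that were higher (2.43%). The second counts genes whose 2 DAPT libraries both lay below both DMSO libraries, which held for 3318 genes (17.7%), or both above, which held for 3179 genes (17.0%). Over all genes tested the median log2 fold change of DAPT against DMSO was -0.001.

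The canonical targets of Notch were lower with DAPT. Of the 8 on the list, 6 (Hes1, Hes5, Hey1, Hey2, Heyl and Nrarp) lay below DMSO without overlap and had an unadjusted p under 0.05. Of all genes tested, 17.7% lay below DMSO without overlap and 2.65% were lower at this p. The median log2 fold change of the 8 was -1.34. Heyl, Hes5 and Nrarp passed the limits in DESeq2, none passed them in edgeR, and 4 (Hes1, Hes5, Heyl and Nrarp) did so in edgeR without the filter. With any 1 of the 4 libraries left out, including either library with more mesenchyme RNA, the count at an unadjusted p under 0.05 was again 6, and the median log2 fold change ranged from -1.57 to -1.03.

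Heyl (ENSMUSG00000032744, chromosome 4, 122910799 to 122927118, plus strand; positions of genes are on NCBIM37 with GENCODE M1), a transcriptional repressor and the Notch target with the smallest p, was at 227 and 323 CPM with DMSO and 69.5 and 76.5 CPM with DAPT. The DAPT libraries lay close together and far below both controls, 3.77-fold lower (log2 fold change -1.91, standard error 0.20, adjusted p = 0.231 in edgeR and 9.6e-12 in DESeq2). Hes5, a repressor that marks Notch activity in supporting cells, was at 7.64 and 7.16 CPM with DMSO and 0.390 and 0 CPM with DAPT. These levels stood on 125 and 130 counts in DMSO and on 5 and 0 counts in DAPT, so that Hes5 was close to absent from the treated libraries at this depth (log2 fold change -5.39, standard error 1.06, adjusted p = 0.643 in edgeR and 2.4e-05 in DESeq2). Nrarp, a feedback inhibitor that shortens the life of the active Notch fragment, was at 18.5 and 28.3 CPM with DMSO and 4.99 and 7.13 CPM with DAPT. It too was several-fold lower in both treated libraries (log2 fold change -1.94, standard error 0.34, adjusted p = 5.5e-04 in DESeq2).

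Hes1, a repressor with sources of expression other than Notch, was at 13.2 and 21.2 CPM with DMSO and 4.13 and 6.55 CPM with DAPT (log2 fold change -1.68, standard error 0.39, adjusted p = 0.032 in DESeq2). Hey1, a repressor of the same family as Heyl, kept a larger part of its level, at 216 and 285 CPM with DMSO and 121 and 131 CPM with DAPT (log2 fold change -0.99, standard error 0.17). Hey2, which marks the pillar cell region, was at 112 and 129.8 CPM with DMSO and 72.2 and 59.2 CPM with DAPT (log2 fold change -0.88, standard error 0.17). Neither Hey1 nor Hey2 reached a 2-fold difference. The last members of the list, Dtx1 and Dtx4, which encode Deltex ubiquitin ligases, overlapped between the treatments. Dtx1 was at 2.02 and 4.02 CPM with DMSO and 3.51 and 0.944 CPM with DAPT and Dtx4 at 24.4 and 28.4 CPM with DMSO and 28.7 and 26.3 CPM with DAPT, with log2 fold changes of -0.45 and 0.06. The direction of both depended on single libraries.

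Per kilobase of exon, the DMSO libraries held Hey1 at 114, Heyl at 53.8 and Hey2 at 47.4 RPKM (CPM per kilobase), against 9.08 for Nrarp, 8.43 for Hes1 and 5.43 for Hes5. By this length-scaled level Hey1 stood highest and Hes5 lowest of the 6, in untreated cells.

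The active Notch fragment acts through RBPJ, which binds DNA with the core TGGGAA. These letters, or TTCCCA for the other strand, were sought in the 250 bases before the starts of genes in the RefSeq promoter table (build GRCm38.p6, whose coordinates differ from those of the counts). Of the 8 Notch targets, 4 were in the table, and 2 of them held the core, against 24.1% of all 27025 genes and 21.6% of all windows of this length. Among genes lower with DAPT by the limits of DESeq2, 10 of the 31 found in the table held it (32.3%), and among those higher 3 of 11 (27.3%). Hes5, Hey2, Lfng and Fabp7 are shown, since they are genes that were lower with DAPT and whose windows hold the core. Their sequence reads 5′ to 3′ on the strand of the gene and ends at the base before its start, with the core in capitals.
Hes5 (chr4:154960673-154960922, plus strand): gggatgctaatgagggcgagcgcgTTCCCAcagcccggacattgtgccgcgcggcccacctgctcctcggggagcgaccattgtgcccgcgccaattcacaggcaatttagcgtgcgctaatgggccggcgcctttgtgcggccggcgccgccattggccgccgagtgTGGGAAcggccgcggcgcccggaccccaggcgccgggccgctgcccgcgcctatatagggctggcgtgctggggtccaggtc
Hey2 (chr10:30842784-30843033, minus strand): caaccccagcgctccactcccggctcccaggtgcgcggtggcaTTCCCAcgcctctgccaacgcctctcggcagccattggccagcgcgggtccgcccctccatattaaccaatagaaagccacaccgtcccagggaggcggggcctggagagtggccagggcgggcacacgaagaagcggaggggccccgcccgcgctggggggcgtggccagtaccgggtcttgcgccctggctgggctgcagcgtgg
Lfng (chr5:140607091-140607340, plus strand): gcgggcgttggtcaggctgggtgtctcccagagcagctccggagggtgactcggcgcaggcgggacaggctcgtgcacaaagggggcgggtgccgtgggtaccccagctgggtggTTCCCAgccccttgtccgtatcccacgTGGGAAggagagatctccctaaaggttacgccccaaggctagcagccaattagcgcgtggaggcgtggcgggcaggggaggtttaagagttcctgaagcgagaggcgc
Fabp7 (chr10:57784673-57784922, plus strand): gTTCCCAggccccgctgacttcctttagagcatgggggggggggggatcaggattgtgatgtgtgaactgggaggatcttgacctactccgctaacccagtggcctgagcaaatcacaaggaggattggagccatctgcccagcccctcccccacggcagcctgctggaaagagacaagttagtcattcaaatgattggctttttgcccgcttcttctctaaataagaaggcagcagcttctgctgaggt
The Hes5 window holds the core at 226 and 82 bases before the start, that of Lfng at 135 and 108, that of Hey2 at 207 and that of Fabp7 at 249. A match to 6 letters is a description of the sequence and no evidence of binding.

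Among the receptors, Notch3 was the member that passed the limits in DESeq2. It was at 63.9 and 87.0 CPM with DMSO and 35.0 and 30.1 CPM with DAPT (log2 fold change -1.21, standard error 0.21, adjusted p = 0.0022 in DESeq2). Notch1, the main receptor of the organ of Corti, was at 231 and 271 CPM with DMSO and 226 and 176 CPM with DAPT, with the DAPT libraries below the controls by a small margin (log2 fold change -0.32, standard error 0.18, unadjusted p = 0.128). Notch2 and Notch4 overlapped between the treatments, with log2 fold changes of 0.26 and -0.07.

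Lfng, a glycosyltransferase that modifies Notch receptors and whose regulatory sequence drives the GFP of the sort, was at 623 and 832 CPM with DMSO and 322 and 258 CPM with DAPT. It was 2.51-fold lower with DAPT (log2 fold change -1.33, standard error 0.20, adjusted p = 2.3e-05 in DESeq2), although every cell counted had passed the GFP gate. Mfng, a related enzyme, went the other way in value, at 4.83 and 5.18 CPM with DMSO and 17.5 and 5.61 CPM with DAPT (log2 fold change 1.20, standard error 0.56). Of the 15 pathway modulators tested, 1 was lower (Lfng) and 1 higher (Dlk2, a non-canonical ligand, log2 fold change 1.50) at an unadjusted p under 0.05. None of 9 genes for gamma-secretase subunits and the ADAM proteases that cut Notch before it reached that limit, and Adam17 (-0.32) and Psen2 (-0.55) had the smallest p among them.

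The ligands divided. Jag1, the ligand of supporting cells, was at 562 and 772 CPM with DMSO and 416 and 227 CPM with DAPT, lower in both treated libraries (log2 fold change -1.05, standard error 0.32, unadjusted p = 0.015). The ligands of nascent hair cells were higher in value and low in level. Dll1 was at 0.550 and 0.661 CPM with DMSO and 5.22 and 2.94 CPM with DAPT, without overlap (log2 fold change 2.73, standard error 0.63, unadjusted p = 0.0044). Jag2 was at 5.07 and 2.65 CPM with DMSO and 16.7 and 5.61 CPM with DAPT (log2 fold change 1.53, standard error 0.62, unadjusted p = 0.048). Dll4, known from blood vessels, was at 1.28 and 0.992 CPM with DMSO and 3.74 and 1.94 CPM with DAPT, also without overlap and with a wider relative error (log2 fold change 1.31, standard error 0.64). Dll3 overlapped. None of the ligands passed the limits in either tool, while Jag1 did so in edgeR without the filter, and in each of Dll1, Dll3, Dll4 and Jag2 the higher treated value was that of DAPT replicate 1.

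**Figure D2:**
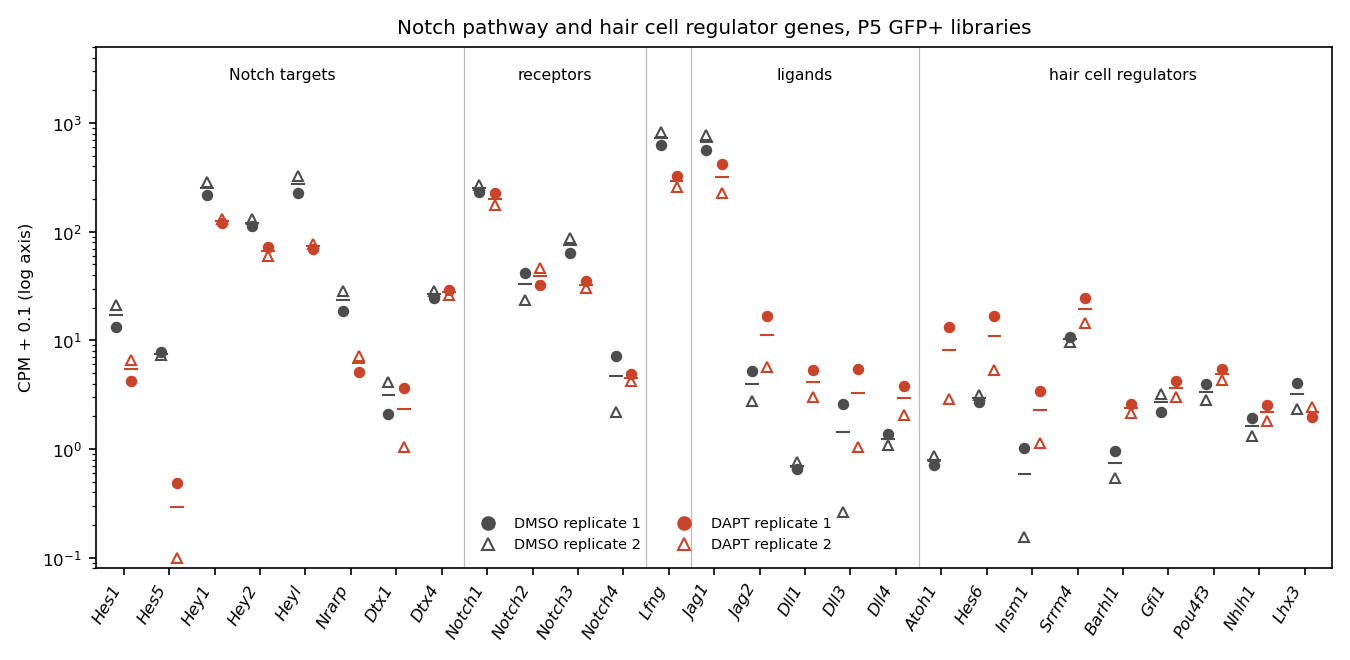
CPM plus 0.1 (log axis) of Notch pathway genes and hair cell regulators in the 4 P5 GFP+ libraries, with grey for DMSO, red for DAPT, circles and triangles for replicates 1 and 2, and short bars for means. From Hes1 to Nrarp both treated libraries lie below both controls, while Atoh1, Hes6, Dll1 and Jag2 lie above them, with DAPT replicate 1 the higher of the pair.

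Regulators of hair cell fate were higher in value at P5, by small amounts of RNA. Of 9 genes, 8 had a log2 fold change above 0, 6 (Atoh1, Pou4f3, Barhl1, Insm1, Hes6 and Srrm4) lay above DMSO without overlap, and 4 had an unadjusted p under 0.05 (Atoh1, Barhl1, Hes6 and Srrm4). The median log2 fold change was 0.93. Of all genes tested, 17.0% lay above DMSO without overlap and 2.43% were higher at an unadjusted p under 0.05. Atoh1 passed the limits in DESeq2 (adjusted p = 0.0089), and Atoh1 and Hes6 passed them in edgeR without the filter. It was at 0.611 and 0.771 CPM with DMSO and 13.2 and 2.78 CPM with DAPT (log2 fold change 3.51, standard error 0.84, adjusted p = 0.716 in edgeR). Both treated libraries were above the controls, and they differed 4.74-fold from each other.

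Hes6, a Hes family member expressed in early hair cells, was at 2.63 and 3.03 CPM with DMSO and 16.5 and 5.24 CPM with DAPT (log2 fold change 1.94, standard error 0.60). Srrm4, a splicing factor of hair cells and neurons, was at 10.7 and 9.64 CPM with DMSO and 24.4 and 14.4 CPM with DAPT (log2 fold change 0.93, standard error 0.34). Barhl1, a homeodomain factor of hair cells, was at 0.856 and 0.441 CPM with DMSO and 2.49 and 2.04 CPM with DAPT (log2 fold change 1.80, standard error 0.71). In Hes6 and Srrm4, as in Atoh1, DAPT replicate 1 was the higher of the treated libraries. Insm1 (log2 fold change 2.17, standard error 1.23), Pou4f3 (0.54, 0.45), Gfi1 (0.45, 0.51), Nhlh1 (0.44, 0.62) and Lhx3 (-0.54, 0.55) did not reach an unadjusted p under 0.05. Without DAPT replicate 1, 8 of the 9 genes were above 0, the median was 0.48 and the count at an unadjusted p under 0.05 went from 4 to 0. Without DMSO replicate 1, DMSO replicate 2 and DAPT replicate 2 it was 2, 1 and 3.

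Genes for the hair bundle and the synapse of hair cells differed little in median. Of 17 tested, 12 had log2 fold changes above 0. Without overlap, 5 lay above DMSO (29.4%) and none below, against 17.0% and 17.7% of all genes tested. The median was 0.19, or 0.35 without DMSO replicate 2. Myo6, a motor protein of the hair bundle, was at 325 and 307 CPM with DMSO and 417 and 441 CPM with DAPT (log2 fold change 0.44, standard error 0.14, unadjusted p = 0.016). Pcdh15, a component of the tip link, was at 100.4 and 133 CPM with DMSO and 194 and 157 CPM with DAPT (log2 fold change 0.59, standard error 0.20, unadjusted p = 0.024). The 11 hair cell markers summed to 544.6 and 559.8 CPM with DMSO and to 673.1 and 707.0 CPM with DAPT. In the P5 GFP- libraries their sum was lower, at 374.4 to 430.7 CPM. What part of the hair cell RNA came from hair cells within the sorted GFP+ cells was not tested. Cib2 and Tmc1, parts of the mechanotransduction complex, lay above DMSO without overlap as well, with log2 fold changes of 0.56 and 0.37 and unadjusted p of 0.147 and 0.139.

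The genes ranked first by p, among those at 10 CPM or more and without overlap, were next listed by the rule set for naming. Lower with DAPT were Ppp1r2, Fabp7, Ttyh1, Heyl, Fzd9, Slc6a14, Daam2, 2310022B05Rik, Ednrb and Srebf1. Higher were Ly6g6c, Dpysl2, BC016579, Padi2, Fam70b, Hjurp, Nebl, Plcd3, Herc4 and Irf4. In edgeR the adjusted p of these 20 ranged from 0.231 to 0.641. The overlap-free order of the libraries was part of the rule and is no result.

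Ppp1r2 (ENSMUSG00000047714, chromosome 16, 31251623 to 31275363, minus strand), an inhibitor of protein phosphatase, was first, at 485 and 503 CPM with DMSO and 190.1 and 188 CPM with DAPT, with replicates nearly equal (log2 fold change -1.39, standard error 0.13, adjusted p = 1.2e-12 in DESeq2). Fabp7, a fatty acid binding protein of radial glia, was at 131 and 161 CPM with DMSO and 38.9 and 29.4 CPM with DAPT (log2 fold change -2.10, standard error 0.21). Ttyh1, a membrane protein of glia, was at 310.2 and 373 CPM with DMSO and 101 and 122 CPM with DAPT (log2 fold change -1.62, standard error 0.17). These 3 stand here through the rank of their p.

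Components of Wnt signalling were among the lowest ranked p. Fzd9 (ENSMUSG00000049551, chromosome 5, 135724808 to 135727100, minus strand), a receptor for Wnt proteins, was at 41.0 and 44.6 CPM with DMSO and 11.2 and 9.80 CPM with DAPT (log2 fold change -2.03, standard error 0.22, adjusted p = 3.5e-10 in DESeq2). Daam2 (ENSMUSG00000040260, chromosome 17, 49595347 to 49703662, minus strand), a formin that acts downstream of Wnt receptors, was at 82.3 and 111 CPM with DMSO and 19.6 and 26.6 CPM with DAPT (log2 fold change -2.07, standard error 0.24, adjusted p = 3.2e-10 in DESeq2). The receptors Fzd4 and Fzd7 differed in opposite directions, by -0.71 (standard error 0.15) and 0.70 (standard error 0.16) on the log2 scale, short of the limits in both tools. Of the 33 members of the Wnt list, 4 were lower (12.1%) and 1 higher (3.03%) at an unadjusted p under 0.05. For all genes tested these shares were 2.65% and 2.43%. Without overlap, 6 lay below DMSO (18.2%) and 4 above (12.1%), against 17.7% and 17.0% of all genes tested. By this count the list separated the treatments about as often as all genes or less often. The median was -0.04.

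Several genes shared with glia were lower. Since the list holds members, such as Fabp7, Ttyh1 and Ednrb, that were chosen with results of these libraries known, its counts are not independent evidence. Of 15 tested, 7 lay below DMSO without overlap (46.7%) and 1 above (6.67%), against 17.7% and 17.0% of all genes tested. The median was -0.47, or -0.30 without DMSO replicate 1 or DAPT replicate 1. Against 2.65% and 2.43% of all genes tested, 5 were lower (33.3%) and 1 higher (6.67%) at an unadjusted p under 0.05. They included Fabp7, Ttyh1, Ednrb, the endothelin receptor of neural crest and glia, at 113 and 93.6 CPM with DMSO and 34.5 and 41.8 CPM with DAPT (log2 fold change -1.44, standard error 0.19), and Aldoc, the aldolase of astrocytes, at 78.2 and 81.3 CPM with DMSO and 46.5 and 45.9 CPM with DAPT (log2 fold change -0.79, standard error 0.15). The glutamate transporter Slc1a3 was the member that was higher, at 267 and 319 CPM with DMSO and 390.0 and 402 CPM with DAPT (log2 fold change 0.43, standard error 0.15). Of 8 Schwann cell markers, 7 had a log2 fold change below 0 (median -0.27) and 1 lay below DMSO without overlap, their sum being 452.3 and 322.5 CPM with DMSO and 347.2 and 336.7 CPM with DAPT. Their part in the glia list was not tested.

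Supporting cell genes showed part of the same pattern. On a list that the study drew from fresh P6 supporting cells, and not from these libraries, 16 of 20 genes were below 0. The median was -0.29, and 7 were lower (35.0%) and 0 higher at an unadjusted p under 0.05. Of all genes tested, 50.1% were below 0, and 2.65% were lower and 2.43% higher at that limit. Slc6a14, an amino acid transporter, was at 110.4 and 128 CPM with DMSO and 44.1 and 43.7 CPM with DAPT (log2 fold change -1.45, standard error 0.16). Agr3, a protein disulfide isomerase, was at 49.7 and 26.3 CPM with DMSO and 9.90 and 7.81 CPM with DAPT (log2 fold change -2.11, standard error 0.36). 2010317E24Rik, the older symbol of Sapcd2, was at 137 and 215 CPM with DMSO and 62.0 and 69.0 CPM with DAPT (log2 fold change -1.43, standard error 0.23). These 3 passed the limits in DESeq2.

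Among 19 general supporting cell genes, 14 were below 0. At an unadjusted p under 0.05, 5 were lower (26.3%) and 1 higher (5.26%), against 2.65% and 2.43% of all genes tested. Besides Lfng, the lower ones included Sox2, the factor of sensory progenitors, at 90.5 and 129.8 CPM with DMSO and 69.5 and 60.0 CPM with DAPT (log2 fold change -0.77, standard error 0.21), the potassium channel Kcnj10, at 463 and 679.9 CPM with DMSO and 334 and 371 CPM with DAPT (log2 fold change -0.70, standard error 0.21), and Cdkn1b, a cell cycle inhibitor, at 329.9 and 459.9 CPM with DMSO and 248 and 277 CPM with DAPT (log2 fold change -0.59, standard error 0.19). The median of -0.13 was not stable, since it became 0.06 without DMSO replicate 2, 0.02 without DAPT replicate 2, -0.29 without DMSO replicate 1 and -0.51 without DAPT replicate 1. On the P6 list the median became -0.06, -0.23, -0.56 and -0.63 in these cases, and the genes below 0 numbered 12, 11, 18 and 19 of 20. Of the 6 genes that the study followed by in situ hybridisation, chosen on libraries of this series, 4 were lower and 1 higher at an unadjusted p under 0.05, the lower ones including Igfbp3 (-0.86, standard error 0.15) and Inhba (-0.73, standard error 0.28), with Anxa5 higher (0.61, standard error 0.25), and this count is not independent evidence.

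**Figure D3:**
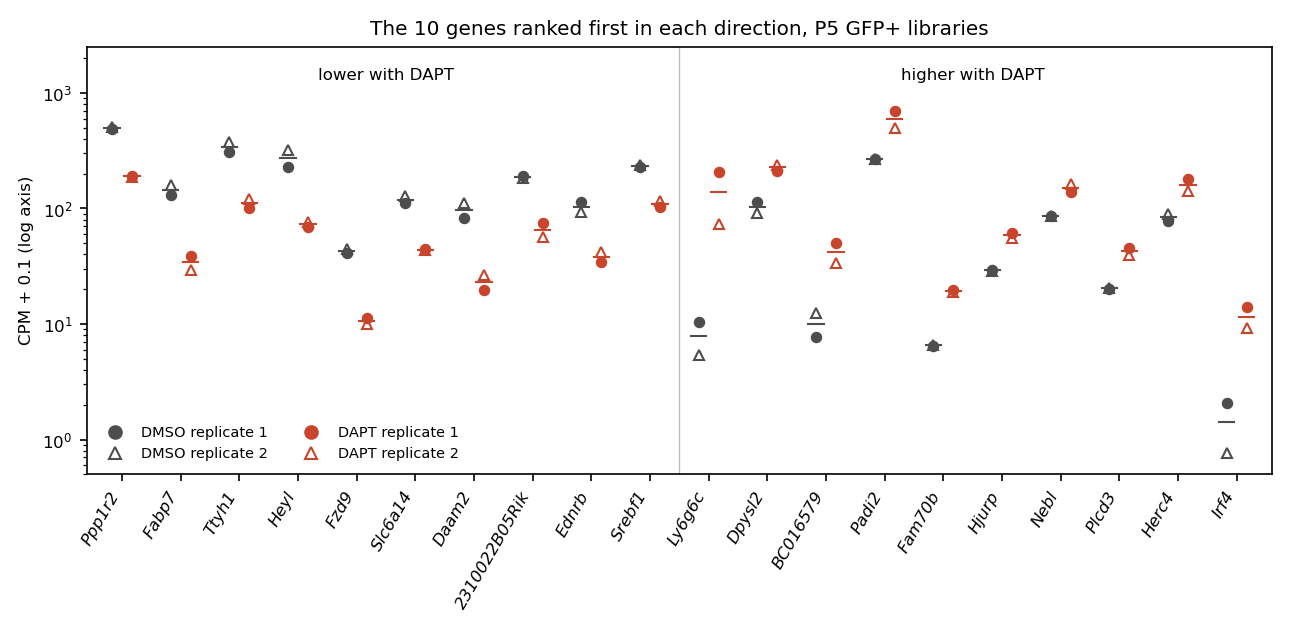
CPM plus 0.1 (log axis) in the 4 P5 GFP+ libraries for the 10 genes with the smallest p in each direction under the naming rule, with symbols as in the plot of Notch pathway genes. Ppp1r2 stood at 485 and 503 CPM with DMSO and at 190.1 and 188 CPM with DAPT, and Ly6g6c stood at 205 and 72.9 CPM with DAPT against 10.4 and 5.29 CPM.

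Srebf1, the regulator of fatty acid synthesis genes, was at 227 and 240.2 CPM with DMSO and 102 and 116 CPM with DAPT (log2 fold change -1.10, standard error 0.14, adjusted p = 4.6e-06 in DESeq2). The remainder of the sterol and fatty acid list did not go with it. At an unadjusted p under 0.05, 1 of 24 genes (Srebf1, 4.17%) was lower and 0 were higher. For this list and those that follow, the shares of all genes tested were 2.65% lower and 2.43% higher. In value 17 of the 24 lay above 0, and the median was 0.14. Cell cycle genes were level too. Of 19 tested, Cdkn1b alone reached an unadjusted p under 0.05, and the median was -0.08. Among 14 genes of FGF feedback 1 did so, Fgf20, a ligand needed for outer hair cells and supporting cells, with 2.81 and 1.43 CPM with DMSO and 0.312 and 0.472 CPM with DAPT (log2 fold change -2.40, standard error 0.79). Immediate early genes, which respond to handling of tissue, had 1 of 17 lower (Nr4a3, -1.07, standard error 0.27) and 0 higher, and none of 10 tectorial matrix genes reached that limit in either direction.

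In the other direction, Ly6g6c (ENSMUSG00000007044, chromosome 17, 35202333 to 35206993, plus strand), a surface protein of the Ly6 family, had the smallest p, at 10.4 and 5.29 CPM with DMSO and 205 and 72.9 CPM with DAPT. The treated libraries differed 2.81-fold from each other and both lay far above DMSO (log2 fold change 4.15, standard error 0.59, adjusted p = 3.8e-04 in DESeq2). Dpysl2, a protein of axon growth, was at 113 and 91.2 CPM with DMSO and 213 and 239.9 CPM with DAPT (log2 fold change 1.15, standard error 0.17). Padi2, a peptidylarginine deiminase, was at 266 and 267 CPM with DMSO and 694 and 500.5 CPM with DAPT (log2 fold change 1.16, standard error 0.20). Irf4, a transcription factor known from lymphocytes, was higher from a low level, at 1.96 and 0.661 CPM with DMSO and 13.9 and 9.07 CPM with DAPT (log2 fold change 3.13, standard error 0.61).

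The genes that passed the limits in DESeq2 at P5 were set against those called at P0, where edgeR passed 863 genes lower (4.17% of 20711) and 870 higher (4.2%). Of the 43 lower at P5, 35 (81.4%) were among the genes called lower at P0, which is 4.06% of that list. Of the 15 higher at P5, 9 (60.0%) were among the genes called higher at P0, or 1.03% of that list. The samples of the 2 ages are separate. Multiply aligned reads were more frequent in P0 DMSO, at 8.57 and 7.63% of all records, than in the 6 remaining GFP+ libraries at 3.95 to 4.45%, and the P0 DMSO libraries carry deposited library numbers apart from the rest. What these numbers mark was not given in the sources used here, and at P0 this difference and the treatment cannot be told apart. Taken from the P0 side, 758 of the 863 lower genes were tested at P5, and 293 of them (38.7%) lay below DMSO without overlap against 61 (8.05%) above, with a median log2 fold change of -0.26. Of 847 genes higher at P0, 273 (32.2%) lay above DMSO without overlap and 57 (6.73%) below, with a median of 0.22. Of all genes tested at P5, 17.7% lay below DMSO without overlap and 17.0% above.

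The difference between the responses of P5 and P0, tested as an interaction of age and DAPT in edgeR, passed the limits in 245 of 22199 genes (1.1%). For Heyl the log2 fold change was -4.46 (standard error 0.44) at P0, the P0 libraries going from 252.5 and 240.3 CPM to 5.13 and 17.8 CPM. In DMSO the mean level of Heyl was 275 CPM at P5 and 246 CPM at P0. Its treated level was 73.0 CPM on average at P5 against 11.5 CPM at P0 (interaction 2.54, adjusted p = 0.046). Hes5, Nrarp and Hey1 stood lower in DMSO at P5 than at P0. Hes5 was at 7.64 and 7.16 CPM at P5 and 112 and 84.8 CPM at P0. Nrarp was at 18.5 and 28.3 CPM against 72.6 and 69.3 CPM, and Hey1 at 216 and 285 CPM against 742 and 609 CPM. In mean level Hes1 (17.2 against 22.8 CPM), Hey2 (121 against 136 CPM) and Dtx4 (26.4 against 33.9 CPM) were closer. Dtx1, like Heyl, was higher at P5 (3.02 against 1.54 CPM). These differences in level were not tested. Hey1 kept more of its level at P5, with log2 fold changes of -0.99 at P5 and -3.14 at P0 (interaction 2.15, standard error 0.29, adjusted p = 0.0046). Hes1 (0.70, adjusted p = 0.597) and Hes5 (2.71, adjusted p = 0.195) did not pass the limits of the interaction, as was also the case for Heyl. The log2 fold change of Hes5 was -5.39 at P5 and -8.18 at P0. The interaction of Hes5 had a standard error of 1.11, an unadjusted p of 0.035 in edgeR and an adjusted p of 0.027 in DESeq2. For Fzd9 the responses were -2.03 and -2.29, with an interaction of 0.26 (standard error 0.24, adjusted p = 0.57).

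Hair cell regulators differed in value between the ages. All 9 passed the limits at P0, with a median log2 fold change of 4.81, against 0.93 at P5. The interaction passed the limits for Lhx3 (-5.35, adjusted p = 8.3e-04), Pou4f3 (-5.07, adjusted p = 0.0062) and Srrm4 (-3.81, adjusted p = 0.0029), and Atoh1 had an interaction of -1.73 (standard error 0.93, adjusted p = 0.316). In absolute level Atoh1 reached 275 and 237 CPM with DAPT at P0 and 13.2 and 2.78 CPM at P5. Lhx3, a factor of differentiating hair cells, was at 3.91 and 2.26 CPM with DMSO and 1.87 and 2.36 CPM with DAPT at P5. Of the 17 genes of the hair bundle and synapse, 10 were called higher at P0, and Myo6 passed the interaction (-1.94, standard error 0.18, adjusted p = 8.3e-04).

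**Figure D4:**
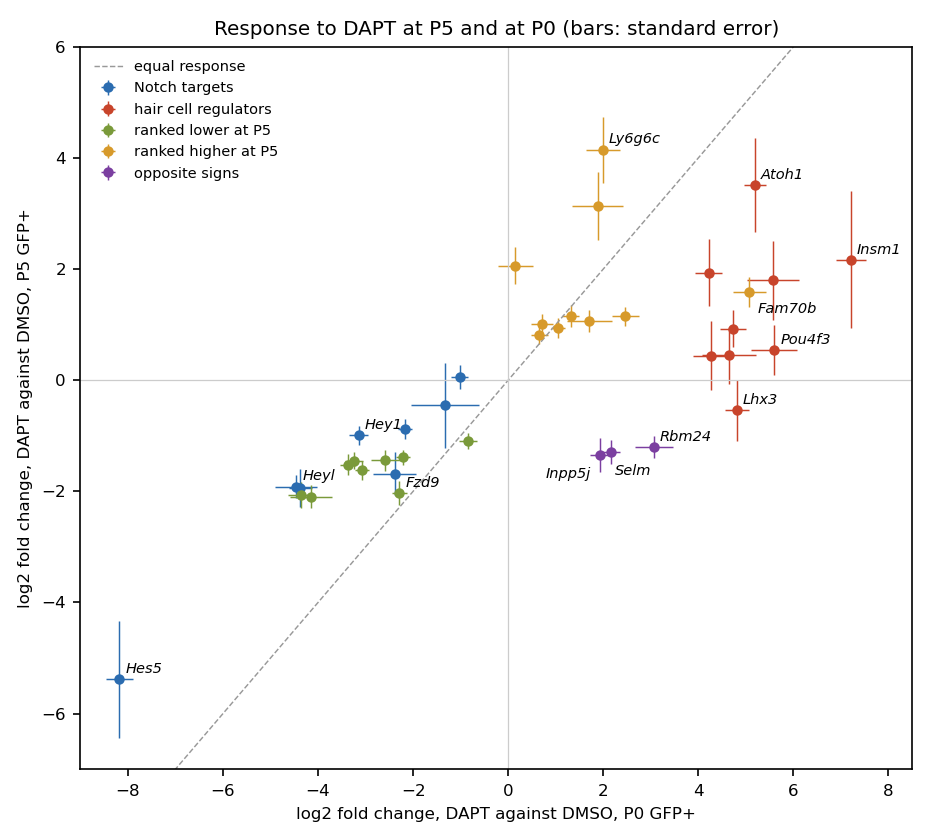
Log2 fold change of DAPT against DMSO in P5 GFP+ cells (vertical axis) against that in P0 GFP+ cells (horizontal axis) with standard errors, for Notch targets, hair cell regulators, the 20 ranked genes and 3 genes of opposite sign. All Notch targets and hair cell regulators lie nearer to 0 at P5 than at P0, Fzd9 lies near the line, and Rbm24, Selm and Inpp5j are lower at P5 and higher at P0.

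A few genes lower at P5 by DESeq2 went the other way at P0. They were Rbm24, Selm and Inpp5j, named after their values were seen. Rbm24 (ENSMUSG00000038132, chromosome 13, 46513669 to 46526459, plus strand), an RNA-binding protein of muscle and hair cells, was at 58.4 and 75.8 CPM with DMSO and 28.1 and 30.0 CPM with DAPT at P5 (log2 fold change -1.21, standard error 0.20, adjusted p = 8.3e-04 in DESeq2), while at P0 it changed by 3.07 (standard error 0.39, adjusted p = 6.1e-04). Its interaction passed the limits (-4.28, adjusted p = 0.004). Selm, a selenoprotein, was at 51.2 and 71.8 CPM with DMSO and 24.5 and 25.8 CPM with DAPT at P5 (log2 fold change -1.29, standard error 0.22) and changed by 2.16 at P0 (interaction adjusted p = 8.3e-04). Inpp5j, an inositol polyphosphate phosphatase, was at 269.7 and 496 CPM with DMSO and 126 and 176 CPM with DAPT at P5 (log2 fold change -1.35, standard error 0.31) and changed by 1.93 at P0 (interaction adjusted p = 0.0029). In DMSO all 3 were higher at P5 than at P0 in mean level, with 67.1 against 21.3 CPM for Rbm24, 61.5 against 22.0 CPM for Selm and 383 against 11.1 CPM for Inpp5j.

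Other genes passed DESeq2 at P5 and were not called at P0. Lower at P5 were Srebf1, Pak6, Shank2 and Vash2, together with Vtn, which was not tested at P0. Pak6, a protein kinase, was at 7.88 and 9.42 CPM with DMSO and 0.624 and 1.36 CPM with DAPT at P5 (log2 fold change -3.09, standard error 0.52) and differed by -0.39 at P0 (interaction adjusted p = 0.032). Shank2, a scaffold protein of synapses, was at 128 and 170.1 CPM with DMSO and 72.3 and 64.8 CPM with DAPT (log2 fold change -1.12, standard error 0.19), against -0.31 at P0 (interaction adjusted p = 0.093). Vash2, which removes tyrosine from tubulin, was at 226 and 289.5 CPM with DMSO and 111 and 141 CPM with DAPT (log2 fold change -1.03, standard error 0.19), against -0.48 at P0 (interaction adjusted p = 0.418).

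Higher at P5 and not called at P0 were BC016579, AU023871, Irf4, Hjurp, Plcd3 and Phactr1. BC016579 was at 7.58 and 12.4 CPM with DMSO and 49.7 and 33.9 CPM with DAPT at P5 (log2 fold change 2.06, standard error 0.34) and differed by 0.15 at P0 (interaction adjusted p = 0.086). Phactr1, a regulator of actin, was at 3.54 and 5.18 CPM with DMSO and 15.6 and 13.3 CPM with DAPT (log2 fold change 1.72, standard error 0.35), against -0.98 at P0 (interaction adjusted p = 0.022). The other 4 were above 0 at P0 too, with log2 fold changes of 1.88 for Irf4, 1.71 for Plcd3, 1.01 for AU023871 and 0.72 for Hjurp, and Srebf1 was at -0.84 there. None of the genes in these 2 groups passed the limits of the interaction in edgeR. In DESeq2 the interaction passed them for Pak6 (-2.67, adjusted p = 0.0015), Phactr1 (2.73, adjusted p = 3.6e-04) and BC016579 (1.94, adjusted p = 0.0090). The tools thus differed for these genes, and for the rest a difference between the ages was not shown in either tool.

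**Figure D5:**
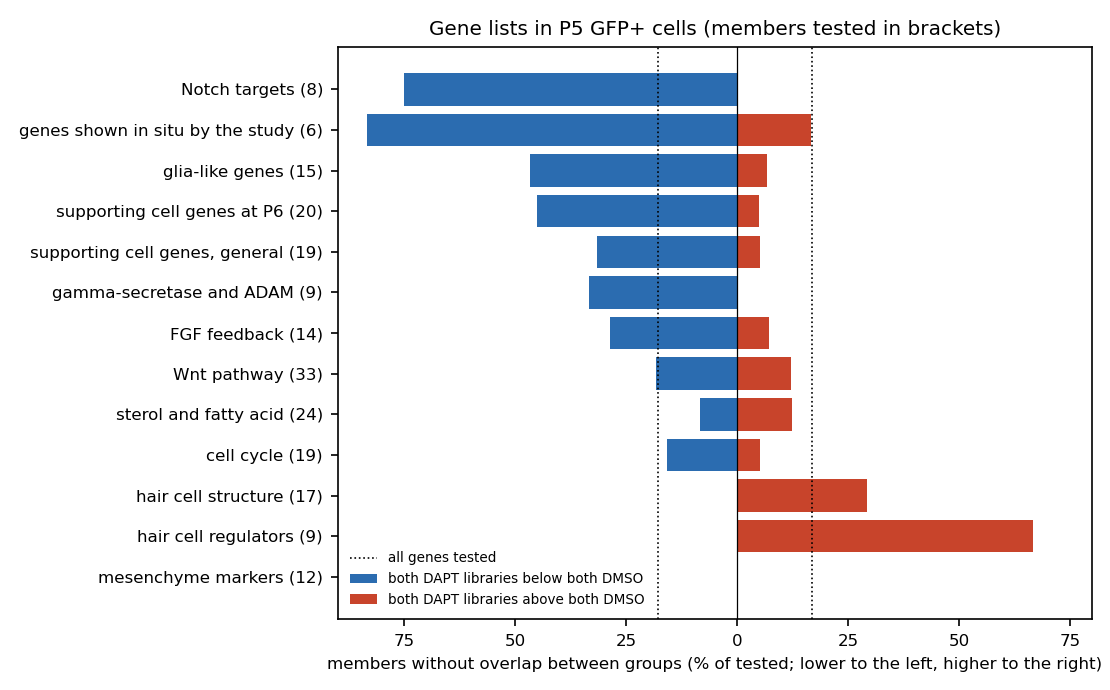
Share of the tested members of each gene list whose 2 DAPT libraries both lay below (blue, left) or both above (red, right) the 2 DMSO libraries in P5 GFP+ cells, with dotted lines at 17.7% and 17.0% for all genes tested. Notch targets (75.0% lower) and hair cell regulators (66.7% higher) lie far from the dotted lines, and mesenchyme markers show no separated member.

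In the GFP- cells of P5 explants, whose libraries differed from the GFP+ ones in having 6.64 to 13.7% of records outside genes over all 8 GFP- libraries, 0 of 17286 genes (0.0%) passed the limits in edgeR, 342 had an unadjusted p under 0.05 and 8 passed in DESeq2. Of the 7 Notch targets tested there, 4 lay below DMSO without overlap and 1 above, against 10.2% of all genes lower and 8.49% higher. The median log2 fold change of these 7 was -0.23. The GFP- fit took no account of replicate numbers, although same-numbered DMSO and DAPT libraries deviated together (correlation 0.726). The response of GFP+ cells minus that of GFP- cells passed the limits in 0 of 21197 genes (0.0%) in edgeR, where 585 had an unadjusted p under 0.05, and in 2 genes in DESeq2, Fzd9 and Daam2. Fzd9 differed by 0.28 and Daam2 by 0.16 in GFP- cells on the log2 scale, against -2.03 and -2.07 in GFP+ cells, and the differences had adjusted p of 4.1e-11 and 5.6e-05 in DESeq2. For Heyl, Hes1, Hey1 and Notch3 the GFP- log2 fold changes were -2.98, -0.83, -0.82 and -0.85. Heyl passed the limits in GFP- cells in DESeq2 (adjusted p = 1.0e-11). Its decrease there was larger in value than the -1.91 of GFP+ cells (difference 1.07, standard error 0.46, unadjusted p = 0.0496 in edgeR).

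Reads of some genes could not be assigned with certainty. Eno1, an enzyme of glycolysis, and its near copy Gm5506 both passed DESeq2 as lower, with equal log2 fold changes of -1.24 and -1.23, and the counting may have divided reads of a single source between them. AU023871 (chromosome 17, 35199638 to 35203129, minus strand) overlaps Ly6g6c, which lies on the plus strand from 35202333. AU023871 was at 1.10 and 2.92 CPM with DMSO and 37.6 and 10.1 CPM with DAPT. Whether it took reads of Ly6g6c was not tested.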

How the data were processed

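RNA of FACS-sorted cells was sequenced from cochlear explants. The authors deposited raw counts of reads per gene, made with HTSeq after alignment to Ensembl mm9 with TopHat (version 1.4.0 in the submitters' notes, which also name DESeq 1.9.2), and the strand setting of the counting was not given in the sources used here. RNA of small sorts was pre-amplified, per the study's methods. Of 36536 gene IDs, 34391 were matched to a symbol and position in GENCODE M1, and the closing lines of reads outside genes stayed out of library sizes.

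Counts were fitted with the quasi-likelihood test of edgeR 4.0.16 (TMM scaling, filterByExpr with a minimum count of 10 and a minimum total of 15), with Benjamini-Hochberg adjustment over all genes tested, the limits being a 2-fold change and 0.01 for the adjusted p. Each pair of groups was fitted alone, and differences between responses were interaction terms over 8 libraries. DESeq2 1.42.0 (Wald test, no independent filtering), other scaling, no filter, all libraries, thinned libraries, a replicate block and each library left out were the alternatives. CPM were scaled by TMM over all 16 libraries and 24731 genes. Scripts were tested on simulated counts with 200 genes changed 4-fold and the same spread for every gene. The changed genes were drawn from those with a mean above 200 counts, so recovery of genes with fewer counts, such as Hes5 and Atoh1, was not tested. There edgeR recovered 28% of the changed genes at P5 and 93.5% at P0 in GFP+ cells, and DESeq2 45.5% and 93.5%. In edgeR 2.5% were recovered in the interaction of age and 7% in that of the sorted fractions. A gene short of the limits in the P5 GFP+ and interaction fits is thus not shown to be unchanged. Replicates differed by more than sampling noise and were kept apart.

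Named were all Notch targets, receptors and ligands and all hair cell regulators, the 10 lower and 10 higher genes with the smallest p at 10 CPM or more without overlap, and up to 4 genes of each other list. Genes called by DESeq2 that are set against P0, the glycolysis pair, Fzd4, Fzd7, Miat and others outside this rule were chosen after their values were seen. The comparison and the gene lists were chosen with earlier results of these data known.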

Additional observations from a re-analysis of the deposited data

Results flagged for a closer look

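With 2 libraries per group, no rule for single outlying samples could be applied. The difference between the responses of P5 and P0 GFP+ cells is given here as the log2 response at P5 minus that at P0. It passed the limits of the interaction test in edgeR for 17 of the 91 named genes and for 245 of all 22199 genes tested (1.1%). Some of the 17, such as Rbm24, Selm, Inpp5j, Eno1, Gm5506 and Miat, were chosen after their values were seen. The count of 17 is thus no result. Where the P0 response was a decrease, a positive value means a smaller decrease at P5. Such values were 2.15 for Hey1, 1.46 for Ttyh1, 1.80 for Slc6a14, 1.85 for 2310022B05Rik, 1.56 for Aldoc, 1.93 for Eno1 and 2.22 for its near copy Gm5506. All 7 lay below 0 in value at both ages, and adjusted p ranged from 0.0033 to 0.0084.

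A further 7 genes had a P0 response above 0 that was smaller at P5 or, for Lhx3, lay below 0 there. The differences were -5.07 for Pou4f3, -5.35 for Lhx3, -3.81 for Srrm4, -3.49 for Fam70b, -1.94 for Myo6, -3.29 for Gad2, an enzyme of GABA synthesis that was at 2.14 and 4.74 CPM with DMSO and 16.4 and 13.2 CPM with DAPT at P5, and -4.43 for the long non-coding RNA Miat.

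A further 3 genes were above 0 at P0 and below 0 at P5. The differences were -4.28 for Rbm24, -3.45 for Selm and -3.27 for Inpp5j. The P0 DMSO libraries stood apart in their share of reads with several alignments, whose part in these differences was not tested. Leaving out either P0 DMSO library lowered the count of genes past the interaction limits from 245 to 105 and 59, and leaving out either P0 DAPT library lowered it to 76 and 119.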

How the results depend on the processing

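With 2 libraries per group, the count of genes past the limits depended on how the spread was estimated. In P5 GFP+ cells it was 0 in edgeR and also 0 at an adjusted p under 0.05, with DESeq2 size factors, with all 8 GFP+ or all 16 libraries in the fit and with thinned libraries, but 108 with no filter on low counts and 58 in DESeq2. Leaving out 1 library gave 0 to 2 genes, the 2 being Ly6g6c and Miat without DAPT GFP+ replicate 2 (log2 fold changes 4.72 and 3.24). At P0 the count was 1733 in edgeR, 3761 at an adjusted p under 0.05, 1089 with all 16 libraries and 1338 to 1764 with 1 library left out. The difference between the ages held in 245 genes, in 758 at an adjusted p under 0.05, in 906 with no filter, in 838 in DESeq2 and in 59 to 268 with 1 library left out, the counts without P0 DMSO replicates 1 and 2 being 105 and 59 and without P0 DAPT replicates 1 and 2 being 76 and 119. In GFP- cells it was 8 in DESeq2 and 0 to 11 with 1 library left out, 11 without DAPT GFP- replicate 1 and 1 (Heyl, -3.50) without DAPT GFP- replicate 2. The difference between the fractions was 3 genes with no filter (Ly6g6c, Fzd9 and Daam2), 2 in DESeq2 and 0 to 0 with 1 library left out. In these fits the left-out arm of 1 library was assumed to vary like the others.

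The labels number the replicates but name no shared litter or day, and the main fits held no block. Same-numbered deviations of DMSO and DAPT correlated at -0.251 in P5 GFP+, 0.726 in P5 GFP-, -0.042 in P0 GFP+ and 0.427 in P0 GFP-. In P5 GFP- cells the records outside genes also went with the number, at 13.7 and 12.6% in replicate 1 and 7.16 and 6.64% in replicate 2. The numbers may thus mark a pairing there, which the main fit left out. With the replicate block the counts were 0 in P5 GFP+ cells, 1784 at P0, 194 for the difference between the ages, 0 in P5 GFP- cells, where genes at an unadjusted p under 0.05 went from 342 to 1806, and 0 for the difference between fractions. With the pairing crossed, which was chosen after seeing the data, 0 genes passed in P5 GFP+ cells.

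Over 91 named genes and 1183 combinations of gene and alternative, 1078 kept direction and side of the limits, 93 passed the limits in addition, and 12 in 5 genes turned sign. The alternative of an adjusted p under 0.05 reused the main fit, where the lowest adjusted p was 0.231. Its outcome was thus fixed in advance for all 91 genes. With 1 library left out, the log2 fold change ranged from -1.69 to 0.22 for Dtx1 (above 0 without DMSO or DAPT replicate 2), from -0.045 to 0.18 for Dtx4 (below 0 without DMSO or DAPT replicate 1), from -0.084 to 0.74 for Notch2 (below 0 without DMSO or DAPT replicate 2), from -0.51 to 4.19 for Dll3 (below 0 without DAPT replicate 1) and from -0.69 to 1.08 for Notch4 (above 0 without DMSO replicate 1 or DAPT replicate 2). Notch4 was also above 0 with the replicate block (0.17), the crossed pairing (0.15) and thinned libraries (0.08). The cause was not tested.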

Other observations

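In P5 GFP- cells no gene passed the limits in edgeR (342 genes had an unadjusted p under 0.05 and 8 passed in DESeq2), and some gene lists separated the treatments without overlap more often than the 10.2% lower and 8.49% higher of all genes. The Notch lists were among them, with 4 of 4 receptors, 4 of 7 targets and 2 of 4 ligands below DMSO. Of the targets, 1 lay above. Of the other lists 3 are given here, chosen after their values were seen. Of 24 genes of sterol and fatty acid synthesis, all 24 had a log2 fold change above 0 and 19 lay above DMSO without overlap (79.2%), with a median of 0.73. In GFP+ cells of the same age the median of the list was 0.14 and 3 of 24 genes lay above DMSO without overlap. Of 20 cell cycle genes in GFP- cells, 18 were below 0 and 15 lay below DMSO without overlap (75.0%), with a median of -0.35. Of 8 macrophage markers there, 7 lay below DMSO without overlap and the median was -0.91. No test of these lists was made.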
